A study of Mus musculus with 4 samples.

Results

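The genes described here encode the α, β and γ subunits of heterotrimeric G proteins and the regulators of G protein signalling (RGS). They were chosen by symbol, as RefSeq protein-coding genes of the mouse build GRCm38 named Gna, Gnb or Gng with a subunit letter or number, or Rgs with a number. Gnal, Gng7 and Rgs9 were kept apart by the rule. This gave 51 of 21883 protein-coding genes on chromosomes 1 to 19, X and Y, of which 15 encode α, 5 β and 11 γ subunits and 20 encode RGS proteins. A gene was marked when the summit of a deposited peak lay within its span extended by 30 kb on both sides.

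Chromatin came from mouse striatum, with 3 immunoprecipitated (IP) fractions and 1 input. The title names the thyroid hormone receptor TRα1 with a GS tag, a Gad2-Cre driver and a Thra-GS allele, and all 4 libraries come under that title. The IP used IgG-coated magnetic beads and the input used no antibody. Gad2-Cre is a driver line for GABAergic neurons, and the labels do not say whether the Thra-GS allele needs Cre to be expressed. Age and sex are not given in the sources used here, nor whether the fractions came from separate animals. Beads alone on untagged chromatin were not analysed here, so recovery by the beads was not told apart from binding of the receptor. The data are 1 list of 7484 peaks for the series, with no value per library, so no spread between fractions and no test between groups can be given. The list holds no expression, so the labelled tissue could not be checked by marker transcripts.

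Heterotrimeric G proteins carry the signal of seven-helix receptors into the cell. The α subunit binds GTP after receptor activation and separates from the βγ dimer, and both parts act on effectors such as adenylyl cyclases, phospholipase C and ion channels. RGS proteins speed GTP hydrolysis by α subunits and so shorten the signal. In striatal projection neurons this machinery lies downstream of dopamine, adenosine, opioid and muscarinic receptors. Thyroid hormone receptors are nuclear receptors that bind DNA, with direct repeats of the hexamer AGGTCA spaced by 4 bases (DR4) as their classical element.

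A peak was found for 20 of the 51 genes, 39.2%, against 32.4% of all protein-coding genes under the same rule. By class these were 6 of 15 α, 3 of 5 β, 3 of 11 γ and 8 of 20 RGS genes. The 20 genes held 31 distinct peaks, with Gna11 and Gna15 sharing 1. Gnb5, Gnao1, Gnaq, Gng10 and Rgs7 were the genes with a peak of at least 10-fold, 9.8% of the 51 genes against 10.5% of all protein-coding genes. The share with a peak of at least 10-fold was thus near the background. Gnb5 and Gnao1 exceeded 20-fold, 3.92% against 1.97%, which rests on 2 genes.

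Peaks overlapped the stretch of 250 bases before an annotated start in 3 of 50 promoters of these genes, those of Gng10, Gnb2 and Rgs10, or 6.0% against 3.37% of all protein-coding promoters. These sequences are shown because they are where a peak of the family lies at or near an annotated start. Capitals mark the bases that the peak covers, and letters run 5′ to 3′ on the strand of the gene (RefSeq, GRCm38.p6). Of the Gnb2 window, the bases outside the gene span are shown.
Gng10, plus strand, chr4:59034906-59035155: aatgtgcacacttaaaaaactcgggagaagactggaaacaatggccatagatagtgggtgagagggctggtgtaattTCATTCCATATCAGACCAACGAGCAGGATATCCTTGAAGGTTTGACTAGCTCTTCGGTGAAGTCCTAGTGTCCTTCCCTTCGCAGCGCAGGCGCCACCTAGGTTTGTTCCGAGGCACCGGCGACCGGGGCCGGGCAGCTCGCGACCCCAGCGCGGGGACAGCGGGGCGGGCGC
Gnb2, minus strand, chr5:137533450-137533556: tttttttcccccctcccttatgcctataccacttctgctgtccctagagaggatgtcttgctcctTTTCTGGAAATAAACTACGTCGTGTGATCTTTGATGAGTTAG
Rgs10, minus strand, chr7:128418173-128418422: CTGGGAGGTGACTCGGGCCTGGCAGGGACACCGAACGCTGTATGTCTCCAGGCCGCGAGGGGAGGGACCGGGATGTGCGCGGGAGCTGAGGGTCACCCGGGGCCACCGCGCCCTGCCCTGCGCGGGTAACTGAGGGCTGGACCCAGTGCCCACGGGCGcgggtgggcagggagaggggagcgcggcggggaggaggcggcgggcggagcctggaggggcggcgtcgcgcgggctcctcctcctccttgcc

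The peak covered 173 of the 250 bases before the Gng10 start, and its summit stood 69 bp before that start. The peak ran on past the start for 104 bases. At Rgs10 the peak covered 158 bases, with its summit 207 bp before an annotated start that lies 1334 bp inside the gene span, and 92 bases lay between the peak and that start. At Gnb2 the peak covered 185 of the 250 bases, 42 of them in the stretch shown. Its summit lay 62 bp after the start, which lies 143 bp inside the span. The hexamer AGGTCA, searched on both strands, was absent from the 250 bases of all 3 windows. Across the family it occurred in 4 of 50 promoters, 8.0%, against 12.8% of 21262 protein-coding promoters. These were promoters of Gnb1, Gnb5, Rgs8 and Rgs21. A DR4 (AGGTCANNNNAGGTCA, both strands) with up to 2 mismatches over its 12 fixed letters occurred in 0 of 50, against 2.27% of all. The closest DR4 matches had 4 mismatches at Gng10 and 3 at both Gnb2 and Rgs10. Promoter sequence was at hand for 38 of the 51 genes, and sequence at the other summits was not analysed here.

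**Figure D1:**
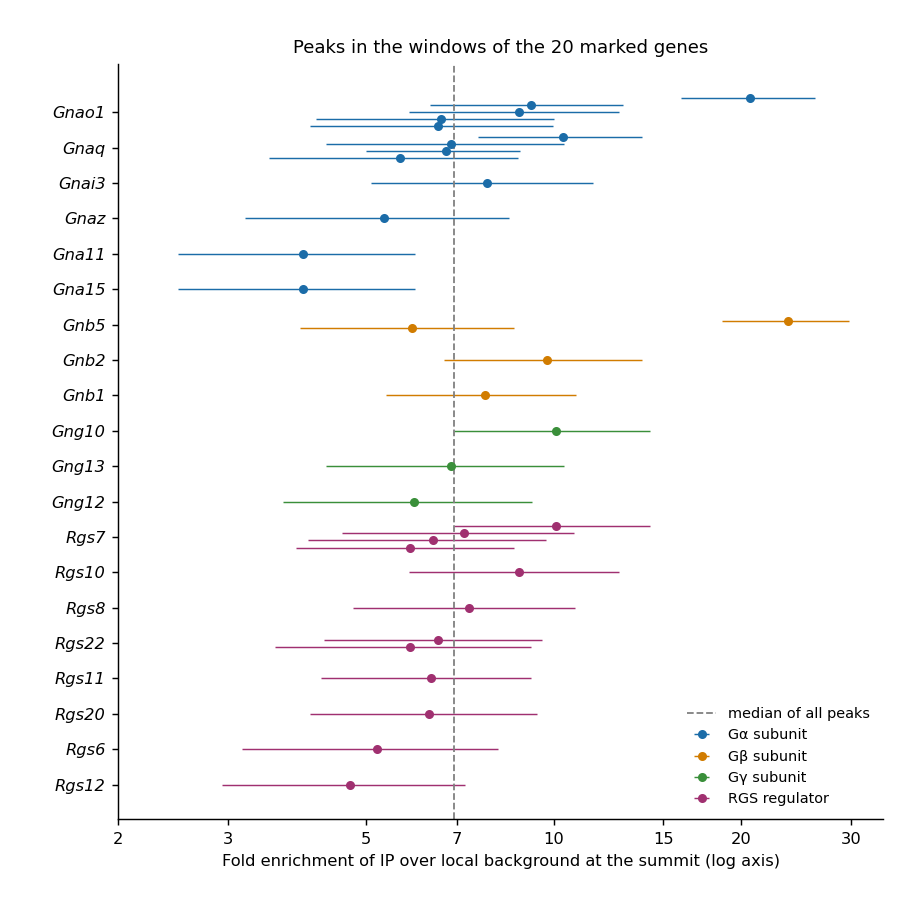
Fold enrichment of IP over local background at the summit (log axis) for every peak in the windows of the 20 marked genes, coloured by class, with 95% exact Poisson intervals for the fragments at the summit and the median of all peaks, 6.91, as a dashed line. Gnb5 and Gnao1 hold the peaks of 23.8 and 20.7, and the remaining 29 lie between 3.96 and 10.3.

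Peak strength is given as the authors' fold enrichment of IP pileup over local background at the summit. The list holds no background, so it was derived from fold and pileup. For this, fold was taken as their ratio after an equal constant is added to both, so it is not the plain ratio. In the family the median fold was 6.72 (quartiles 5.95 and 8.80), against 6.91 (quartiles 5.55 and 9.73) over all peaks. Between 16 and 72 fragments stood at each summit, with a median of 23 both here and over all peaks. Of the 31 peaks, 5 (16.1%) were at least 10-fold, against 23.9% of all peaks. Widths of 174 to 583 bp had a median of 256 bp, against 260 bp. The median fold was 6.85 over the 19 peaks at subunit genes and 6.38 over the 12 at RGS genes. The plot of folds by gene shows that 25 of 31 intervals cross the median of the list, so these peaks were not told apart from that median. Peaks were not compared with each other in pairs. Intervals cover counting error of the summit fragments only, with the background held fixed.

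Among the listed α genes, which leave out Gnal, Gnao1 had the most peaks and the strongest peak. It encodes Gαo, the most abundant α subunit of brain and a Gi/o class member. The gene spans 159 kb on chromosome 8 (93810153 to 93969388, plus strand), and all 5 of its summits lay inside the span. The strongest, spanning 93839039 to 93839621, had a fold of 20.7 (16.0 to 26.3) from 65 fragments, a −log10 q of 62.7 and rank 243 of 7484. It lay 28.6 kb after the start. The other Gnao1 summits had folds of 9.18 at 13.2 kb, 8.80 at 52.0 kb, 6.59 at 73.0 kb and 6.52 at 97.6 kb. Neighbouring summits of Gnao1 were 15.4 to 24.5 kb apart, and the last 60974 bp of the gene held none. Of 1505 protein-coding genes with a span within 1.5 times that of Gnao1, 29 (1.93%) had at least 5 summits, and the median was 0.

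Gnaq encodes Gαq, which activates phospholipase Cβ. It spans 256 kb on chromosome 19 (16132684 to 16388520, plus strand) and held 4 summits inside the span. The strongest, spanning 16358979 to 16359315, had a fold of 10.3 (7.55 to 13.8) from 43 fragments, 226 kb after the start. The others had folds of 6.85 at 2.65 kb, 6.72 at 169 kb and 5.67 at 246 kb. The summit at 169 kb had more fragments, 49. Its derived background was 6.0 in pileup units, the highest among the 31 peaks, and that of the strongest Gnaq summit was 3.0. Of 841 protein-coding genes of similar span, 58 (6.9%) had at least 4 summits. Gna14, the neighbouring Gq/11 class gene, had none within 30 kb, and its nearest, 57.2 kb away, was the last Gnaq summit.

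The remaining marked α genes had their summits outside the span. Gnai3, which encodes an inhibitory α subunit, had 1 peak of 7.82 (5.09 to 11.6) at 12.7 kb on its 5′ side, and the receptor gene Gpr61 was nearer, at 3929 bp. Gnaz, a Gi/o class gene whose product resists pertussis toxin, had 1 of 5.34 (3.20 to 8.47) at 20.5 kb, inside Rab36. Gna11, the close relative of Gnaq, and Gna15, known from blood cells, lie next to each other on chromosome 10 and shared a peak of 3.96 (2.49 to 6.0), the weakest of the 31. It lay 6568 bp from Gna11 and 27.3 kb from Gna15, both on the 5′ side.

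No peak within 30 kb was found for 9 α genes. Gnas, which encodes the Gs subunit that stimulates adenylyl cyclase, had its nearest summit at 257 kb. Gna12 and Gna13, which signal to the cytoskeleton, had theirs at 97.4 and 70.5 kb. Gnai1 was 1186 kb from its nearest summit and Gnai2 188 kb. The sensory genes Gnat1 of rods, Gnat2 of cones and Gnat3 of taste cells were 144, 57.4 and 1527 kb from one. By class, 3 of 5 Gi/o, 3 of 4 Gq/11, 0 of 2 G12/13, 0 of 3 transducin and gustducin genes and 0 of 1 Gs gene were marked. These small counts stand beside 32.4% of all protein-coding genes, and differences between the classes were not tested. Gnai3, Gnaz and Gna15 were marked through summits nearer to or inside another gene. Gnao1 and Gnaq span over 100 kb, where 53.3% of all protein-coding genes were marked.

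**Figure D2:**
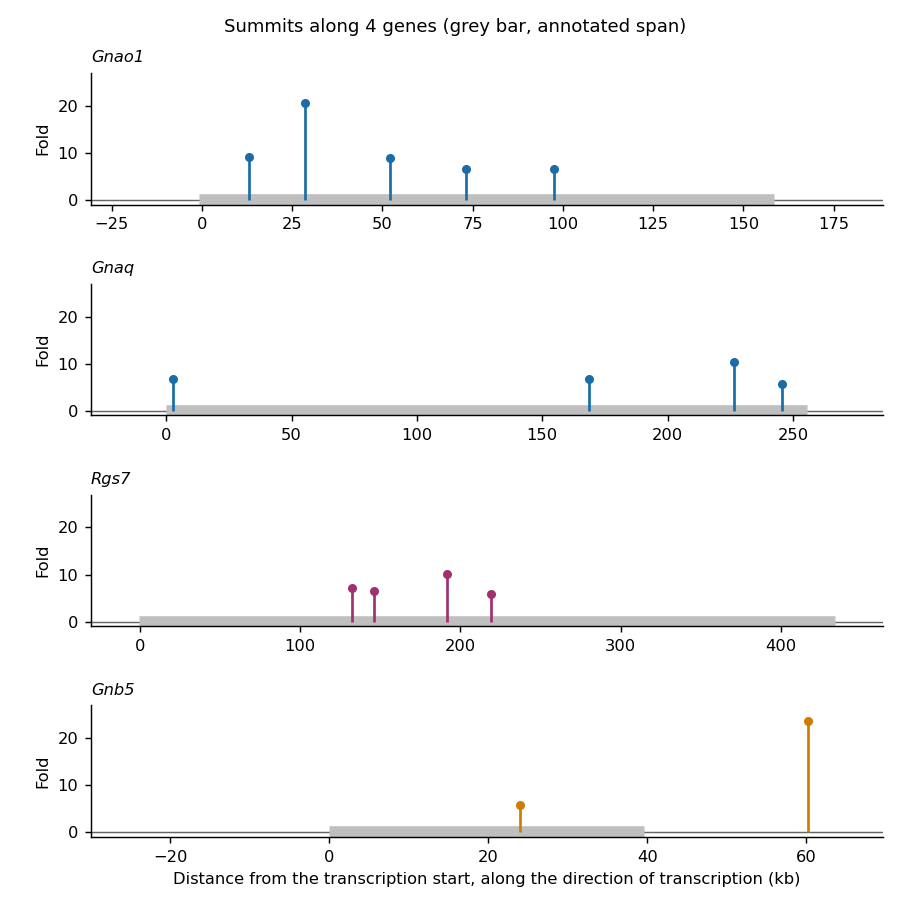
Summits along Gnao1, Gnaq, Rgs7 and Gnb5, placed by distance from the transcription start along the direction of transcription (kb), with stem height as fold enrichment and the grey bar as the annotated gene span. The 5, 4 and 4 summits of Gnao1, Gnaq and Rgs7 lie inside the spans, and the 23.8-fold summit in the Gnb5 window lies 20.6 kb beyond the gene.

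Of the β genes, Gnb5 held the strongest peak of the family. Gβ5 differs from the other β subunits in that it pairs with the R7 class of RGS proteins in place of a γ subunit. This peak (chromosome 9, 75366316 to 75366646) reached 23.8-fold (18.7 to 29.8) from 72 fragments, a −log10 q of 73.2 and rank 137 of 7484. It lay 20.6 kb beyond the 3′ end of Gnb5 and was nearer to Bcl2l10, a gene of the Bcl2 family, at 14.9 kb. A second Gnb5 peak, inside the gene at 24.0 kb from the start, had a fold of 5.92 (3.92 to 8.63). The strong peak therefore belongs to Gnb5 by the window only, and the peak inside the gene was below the median of the list.

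Gnb2 and Gnb1 encode widely used β subunits. Gnb2, a short gene of 5.32 kb on chromosome 5, had 1 peak of 9.77 (6.66 to 13.9), at 137533132 to 137533491, over its start. That start lies beyond the bases shown above. Gnb1, which spans 68.0 kb on chromosome 4, had 1 peak of 7.76 (5.39 to 10.9) inside the gene, 23.2 kb after the start. All 3 marked β genes had a summit inside the span. Gnb4 was unmarked with its nearest summit at 182 kb, and Gnb3, known from cone photoreceptors, with one at 91.0 kb.

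Of the γ genes 3 of 11 were marked, 27.3%, against 32.4% of all protein-coding genes. Under 20 kb, a length class that holds 8 of the 11, it was 2 of 8, against 26.4% of all such genes. The γ genes have a median span of 5.71 kb against 17.2 kb for all protein-coding genes, though Gng2 and Gng12 span over 100 kb. Gng10 had a peak of 10.1 (6.93 to 14.3) from 30 fragments at chromosome 4, 59034983 to 59035259, across its start. Gng13, a γ gene known from taste and retinal bipolar cells, had 1 of 6.85 (4.32 to 10.4) at 5982 bp on its 3′ side, inside Chtf18. Gng12 had 1 of 5.97 (3.67 to 9.24) at 16.0 kb on its 3′ side, inside Gadd45a and the long non-coding RNA gene E230016M11Rik. Gng10 was thus the marked γ gene with no nearer protein-coding gene at its summit. Unmarked γ genes were Gng2, Gng3, Gng4, Gng5, Gng8, Gng11, Gngt1 and Gngt2, whose nearest summits lay at 49.1 kb for Gng8 up to 683 kb for Gng2.

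Among the RGS genes, the R7 class, whose proteins bind Gβ5, had a summit inside 3 of 3 listed genes, against 13.7% of all protein-coding genes. Rgs9, kept apart by the rule, is not counted here. The median span of the 3 genes was 434 kb. All 3 were also marked under the extended window. By that rule 53.3% of all protein-coding genes over 100 kb and 26.4% of those under 20 kb were marked. Rgs6 and Rgs7 fall in the former length class and Rgs11 in the latter. The share with a summit inside the span was not split by gene length. Rgs7 spans 434 kb on chromosome 1 (175059076 to 175492862, minus strand) and held 4 summits. The strongest Rgs7 peak, at 175300507 to 175300776, had a fold of 10.1 (6.93 to 14.3) from 30 fragments, 192 kb after the start. The other Rgs7 peaks had folds of 7.17 at 132 kb, 6.41 at 146 kb and 5.88 at 219 kb, so that all 4 lay in a stretch of 87.0 kb in the middle of the gene. Of 450 protein-coding genes of similar span, 72 (16.0%) had at least 4 summits. Rgs6, the longest gene of the family at 546 kb, had 1 peak of 5.20 (3.16 to 8.14) at 421 kb from its start. Rgs11 spans 8.80 kb and had 1 peak of 6.35 (4.24 to 9.19), 1188 bp inside the gene from one end.

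The R4 class of small RGS proteins was marked in 1 of 10 genes, with a median span of 31.4 kb, against 32.4% of all protein-coding genes. Rgs5, Rgs8, Rgs13, Rgs18 and Rgs21 span 20 to 100 kb, where 35.1% of all protein-coding genes were marked. Rgs1, Rgs2, Rgs4 and Rgs16 are under 20 kb, where 26.4% were, and Rgs3 is over 100 kb, where 53.3% were. The difference between R7 and R4 was not tested. Rgs8, a brain R4 gene, had a peak of 7.32 (4.76 to 10.8) inside the gene on chromosome 1, at 5611 bp from the nearest of its 3 listed starts. Rgs4 was the closest to the limit from outside, with a summit of 12.7-fold at 35.4 kb on its 5′ side and no nearer protein-coding gene. Just inside the limit stood the Gna15 summit at 27.3 kb and a Rgs22 summit at 22.6 kb. The other unmarked R4 genes had their nearest summits at 57.4 kb for Rgs3, 69.1 kb for Rgs16 and 87.2 kb for Rgs5. For Rgs16 this was the Rgs8 peak, and for Rgs5 the 12.7-fold summit near Rgs4. Rgs8 with Rgs16, and Rgs4 with Rgs5, are therefore not separate cases. Rgs2, Rgs13, Rgs1, Rgs21 and Rgs18 lie together on chromosome 1 within 776 kb (143999338 to 144775427). They share a stretch of 5.40 Mb without a summit among the peaks used here, bounded 60.5 kb below Rgs2 and 4563 kb above Rgs18 in coordinate. These 5 genes are therefore 1 neighbourhood and not separate cases.

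In the R12 class, Rgs10 and Rgs12 were marked. Rgs10, whose product is a small RGS protein of brain and immune cells, had a peak of 8.80 (5.87 to 12.7) from 26 fragments at chromosome 7, 128418265 to 128418466, before the start shown above. Rgs12, a multidomain RGS gene, had 1 of 4.71 (2.94 to 7.22) inside the gene. Rgs14, known from hippocampal area CA2, had its nearest summit at 60.2 kb. In the RZ class, Rgs20, whose product acts on Gαz, had 1 peak of 6.30 (4.06 to 9.39) inside its 161 kb span, while Rgs17 and Rgs19 were 319 and 324 kb from their nearest summits. Rgs22, known from testis, had 1 peak of 6.52 (4.28 to 9.56) inside the gene and 1 of 5.87 (3.57 to 9.20) at 22.6 kb, inside Cox6c. All 8 marked RGS genes and 5 of the 12 marked subunit genes had a summit inside the span, where 42.3% of all marked protein-coding genes had one. Of the 8 RGS genes, 4 span over 100 kb. Over the family a summit lay inside 13 of 51 genes, 25.5%, against 13.7% of all protein-coding genes. That comparison was not made by gene length, and the median span was 38.9 kb in the family against 17.2 kb.

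**Figure D3:**
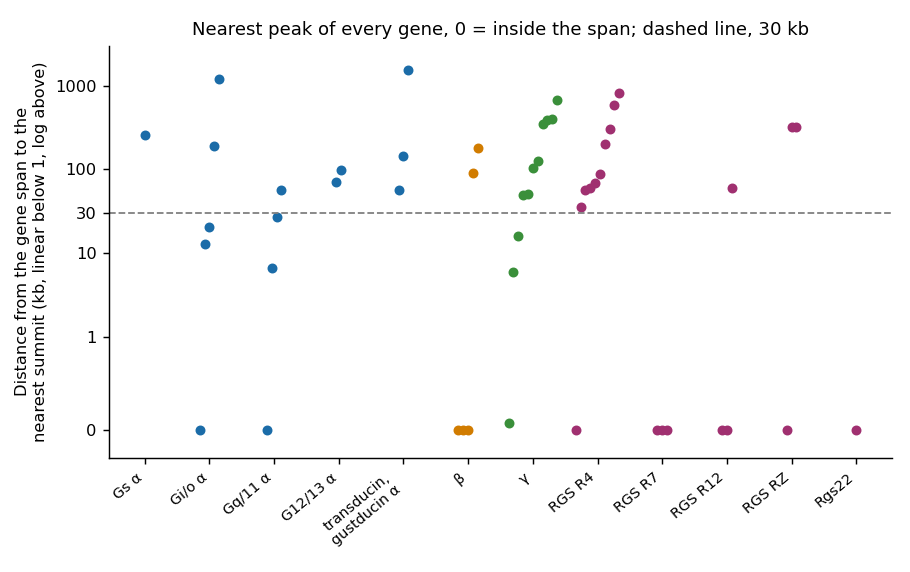
Distance from the span of each of the 51 genes to its nearest summit (kb, linear below 1 and logarithmic above), by subfamily, with 0 for a summit inside the span and the dashed line at 30 kb. All 3 listed R7 genes lie at 0, and 9 of 10 R4 genes lie above the line.

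Gene length bears on these counts, since a longer span gives a wider window. The family had a median span of 38.9 kb against 17.2 kb for all protein-coding genes. Under 20 kb, 5 of 20 genes of the family were marked, 25% against 26.4% of all such genes. From 20 to 100 kb it was 8 of 21, 38.1% against 35.1%, and over 100 kb it was 7 of 10, 70.0% against 53.3%. The marked genes over 100 kb were Gnao1, Gnaq, Gng12, Rgs6, Rgs7, Rgs20 and Rgs22. Shares in the lower length classes were close to the background, and the class over 100 kb rests on 10 genes. The 3 genes with 3 or more summits were 5.88% of the family, against 4.15% of all protein-coding genes. All 3 are over 100 kb long, where they made up 3 of 10, 30% against 14.9%.

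**Figure D4:**
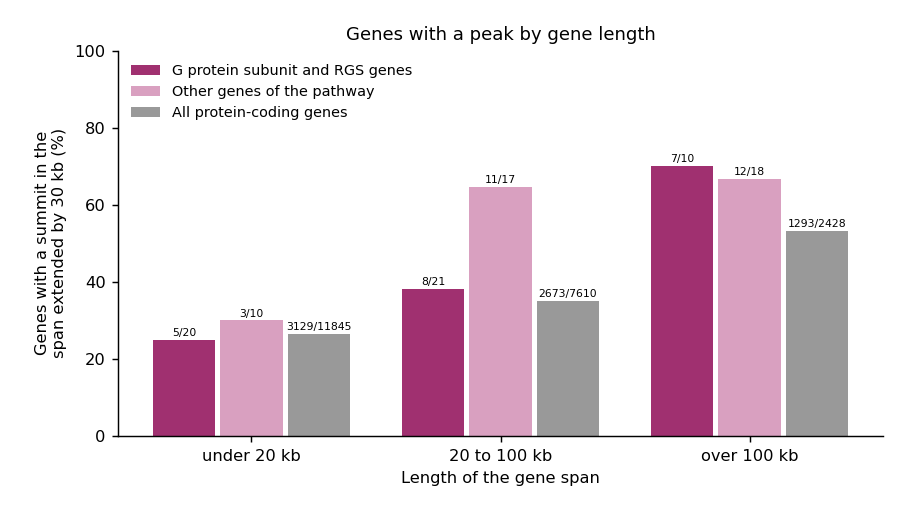
Share of genes (%) with a summit in the span extended by 30 kb, by length of the gene span, for G protein subunit and RGS genes, other genes of the pathway and all protein-coding genes, with the number marked of the number in the class above each bar. The family stands at 25%, 38.1% and 70.0%, and all protein-coding genes at 26.4%, 35.1% and 53.3%.

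Counted as pairs of gene and summit, 22 of 32 in the family, 68.8%, lay inside the span and over 1 kb from an end, against 34.1% of 11156 pairs over all protein-coding genes. Gnao1, Gnaq and Rgs7 supplied 13 of the 22, and without these 3 genes it was 9 of 19, 47.4%. Within 1 kb of an end lay 2 pairs, those of Gng10 and Gnb2, 6.25% against 13.5%. By genes this was 3.92% of the 51, against 6.63% of all protein-coding genes. Among genes over 100 kb the interior share was 16 of 18, 88.9% against 76.8%, a smaller difference than over all lengths. Between 1 and 5 kb outside the span there were 0 of 32 pairs, against 7.52% of all, and from 5 to 30 kb there were 8, 25% against 44.9%. No nearer protein-coding gene was present for 25 of 32 pairs, 78.1% against 55.6%. Gnao1, Gnaq and Rgs7 supplied 13 of these 25 pairs, all inside their spans. By genes, 15 of 51 had such a peak, 29.4% against 18.7%. Neither share was split by gene length, and a longer gene holds more summits inside its own span. The other 5 marked genes, Gnai3, Gnaz, Gna15, Gng12 and Gng13, were marked through summits nearer to or inside another gene.

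The 3 genes kept apart are all known from striatum and all had peaks inside them, against 13.7% of all protein-coding genes. At least 3 summits in the extended span were held by 4.15% of all protein-coding genes. The lists were chosen with earlier results known, and this count was not tested. Gnal, which encodes Gαolf, had 5 summits of up to 13.8, Gng7 had 10 of up to 15.6, and Rgs9 had 4 of up to 36.1.

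Other genes of the pathway, from lists chosen with earlier results known, were marked in 26 of 45, 57.8% against the same 32.4%. By length, 30% of 10 genes under 20 kb were marked against 26.4% of all, 64.7% of 17 from 20 to 100 kb against 35.1%, and 66.7% of 18 over 100 kb against 53.3%. Adenylyl cyclases, which make cAMP, had peaks at 5 of 9 genes, led by Adcy5, the main striatal form, with 9 summits of up to 25.1. Adcy1 followed at 7.06, at a summit nearer to Igfbp1, and Adcy3 at 6.93. Phospholipase Cβ genes, the effectors of Gαq, had peaks at 4 of 4, with Plcb1 at 8.62, Plcb3 at 6.71, nearer to Bad, and Plcb2 at 5.41, nearer to Inafm2. Plcb1 and Plcb4 span over 100 kb. Channels opened by βγ dimers had peaks at 3 of 4, with Kcnj6 at 9.14, Kcnj3 at 6.77 and Kcnj9 at 5.27, nearer to Igsf8.

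Partners of the R7 class had peaks at 3 of 4 genes, against 32.4% of all protein-coding genes. Of these, Rgs7bp and Gpr158 span over 100 kb, where 53.3% of all protein-coding genes were marked. Rgs7bp, which encodes a membrane anchor of R7 proteins, had 5 summits of up to 24.0, and Gpr158, which encodes an orphan receptor that binds RGS7, had 1 of 9.09. Rgs9bp, the anchor gene of retinal RGS9, had 1 of 6.20, and Gpr179 had none.

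Receptor kinases, which phosphorylate active receptors, had peaks at 3 of 6 genes, with Grk4 at 21.3, Grk6 at 11.4, nearer to Prr7, and Grk3 at 4.4. Among arrestins, which bind the phosphorylated receptor, Sag of rods was marked at 22.8, 3551 bp from the gene, and Arrb1, Arrb2 and Arr3 had none. Exchange factors and dissociation inhibitors had peaks at 3 of 8, with Ric8b, a chaperone of Gαs and Gαolf, at 11.2, Gpsm1 at 7.53, nearer to Ccdc187, and Ccdc88c at 6.52. Other genes with an RGS domain had peaks at 4 of 6, with Akap10 at 29.3, nearer to Ulk2, Axin2 at 11.1 and Snx14 at 6.85, nearer to Nt5e. The fourth, Axin1, was marked through the peak inside Rgs11. Each of these small counts stands beside 32.4% of all protein-coding genes and was not tested.

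**Figure D5:**
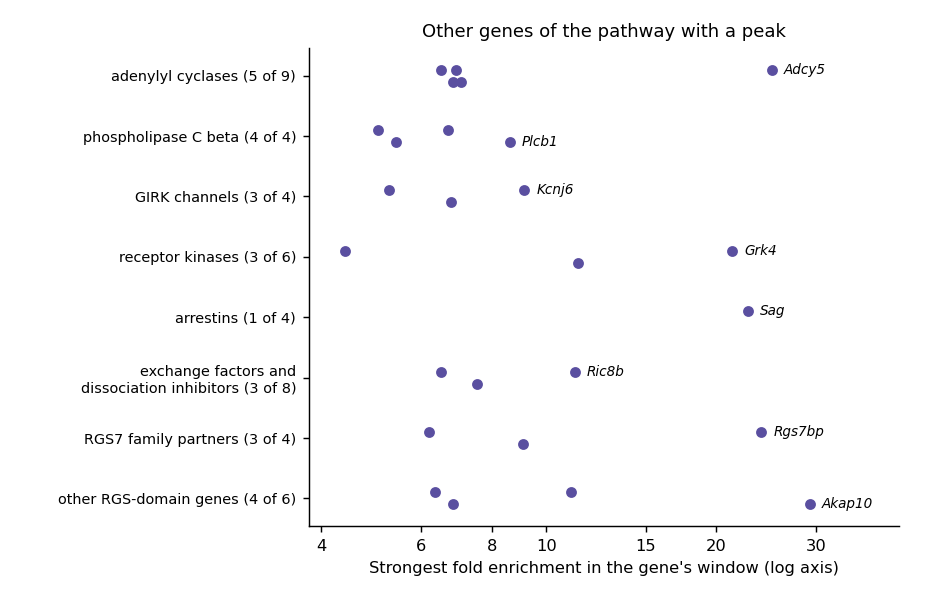
Strongest fold enrichment (log axis) in the window of each marked gene of 8 other roles in the pathway, with the number marked of the number listed beside each role and the leading gene named. Adcy5, Rgs7bp, Sag, Grk4 and Akap10 stand above 20, and the other 21 marked genes lie below 12.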

How the data were processed

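The authors deposited 1 peak list for the series, from 3 IP fractions and 1 input. Per the submitters' processing notes the tools were MACS2 2.1.1.20160309.0 and Bowtie2 2.3.4.2, on GRCm38 (mm10), with no role or setting stated. Pooling of the fractions is not stated. Per the file headers, the deposited list gives each summit, a pileup signal, a linear fold ratio over local background, and q-values, which the numbers show to be on a −log10 scale. All these are the authors' values and serve only to describe and filter peaks within the list. Pileups lie on a grid of step 0.939, which gives the fragments at each summit, with 95% exact Poisson intervals. Peaks are numbered up to 7653, and 169 numbers are not used here. Read totals per library are not given in the list, so the depth is known only as fragments per summit.

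Genes, starts, strands and promoter sequence came from RefSeq GRCm38.p6 tables without exons. The list of members and the lists of other genes were chosen with earlier results of these data known, and 1 of the latter lists is not reported here. Full values are given for members with a fold of at least 10, with 3 or more peaks, or leading their subfamily, and for up to 3 other genes per role. Counts stand beside all protein-coding genes under the same rule, without tests. The search was tested on simulated data. Python 3.11.15, pandas 2.3.3, numpy 2.4.6 and scipy 1.17.1 were used. Alternatives changed the window, the peak threshold, extreme peaks, the background, the gene assignment and shared peaks.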

Additional observations from a re-analysis of the deposited data

How the results depend on the processing

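Under 10 alternatives the number of genes with a peak ranged from 10 to 33 of 51. It was 13 with the summit inside the span only, 33 with 100 kb, 12 where −log10 q had to reach 10 and 10 above the median fold, in place of 20. Subunit genes were 5, 19, 7 and 7 in those settings in place of 12, and also 6 with 5 kb and 7 with the nearest protein-coding gene only. RGS genes were 14 with 100 kb, 5 within 30 kb of either gene end, 5 under the q limit and 3 above the median fold, in place of 8. Peaks in the windows were 72, 16 and 13 with 100 kb, the q limit and the fold limit, in place of 31, and other genes of the pathway 16 and 14 with the last 2 and 17 inside the span only, in place of 26. These changes follow from wider or narrower windows, from fewer peaks and, with the nearest gene only, from the assignment of peaks to genes. Shares of the 51 genes and of all protein-coding genes were 25.5% and 13.7% inside the span, and 29.4% and 18.7% with the nearest gene. With 100 kb they were 64.7% and 54.0%, and with 5 kb 27.5% and 19.1%. Within 30 kb of either gene end they were 33.3% and 30.1%, and under the q limit 23.5% and 20.4%. Above the median fold they were 19.6% and 19.5%, so the distance from the background depends on the setting. Counts of subunit, RGS and other genes stand beside the same background shares. None of these shares was split by gene length. The strongest Gnb5 fold was 5.92 wherever the 3′ peak was left out. No paired analysis was possible because the list has no value per library. Fragments of 16 to 72 per summit limit the order among peaks.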

Other observations

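From 30 to 100 kb, 23 of the 51 genes had a summit, 13 of them with none nearer, and 18 genes had no summit within 100 kb. Within 100 kb, 64.7% of the family and 54.0% of all protein-coding genes had a summit. Rgs4, known to be regulated in striatum by dopamine drugs, had 2 such summits, and its summit of 12.7 at 35.4 kb was closer to Rgs4 than to any other protein-coding gene. Gng8 had 4, of which the strongest, 14.97 at 55.3 kb, lay inside Pnmal1. Gna13 had 5, and its strongest, 36.1 at 73.4 kb, lay inside Rgs9. Gna12 and Rgs3 had 1 each, at 97.4 and 57.4 kb, both within 1 kb of another gene, Iqce and Hdhd3. Gnao1 had a further summit of 6.03 at 64.8 kb with no nearer protein-coding gene. Gnat3 and Gnai1, neighbours on chromosome 5, lie in a stretch of 3.87 Mb without a summit among the peaks used here.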
